A study of Rattus norvegicus with 14 samples.

Results

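C-type natriuretic peptide (CNP) signals through cyclic GMP. Its gene Nppc, the genes of its receptors, Npr2 and Npr3, and Gucy1b1, a gene of the soluble guanylyl cyclase, were followed in fetal rat gonads. These 4 genes were selected from earlier results on the same arrays, so the differences between their groups are given as descriptions without a test. Every probe set (a group of short probes for 1 transcript) that the platform annotation assigned to one of the 4 symbols was used. That gave 5 probe sets, 1 each for Nppc, Npr2 and Npr3 and 2 for Gucy1b1, out of 15923 probe sets on the array and 10411 named genes. No member was lost to a filter in the main analysis, but Npr3 was lost in the alternative setting with a filter on dim probe sets.

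RNA of fetal testis and fetal ovary, each taken on embryonic day 13, 14 or 16 (called E13, E14 and E16), was hybridised to 14 single-channel Affymetrix arrays, 2 per group. The seventh group was E13 testis held in organ culture for 3 days, on filters floating on CMRL 1066 medium with antibiotics, insulin, glutamine, transferrin and bovine serum albumin, with 1 change of medium. Every array carried RNA from an independent pool of 20 to 40 gonads, so individual animals cannot be seen. The fresh gonads had no stated treatment, and the strain is not given in the sources used here.

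Nppc encodes the precursor of CNP, a short secreted peptide. Npr2 encodes its signalling receptor, a membrane protein whose inner part is a guanylyl cyclase that makes cyclic GMP when CNP binds. Npr3 encodes the clearance receptor, which binds natriuretic peptides, has no cyclase domain and removes them from the surroundings. Gucy1b1 encodes the beta subunit of the soluble guanylyl cyclase, which answers to nitric oxide and is not a receptor for CNP, but makes the same second messenger. In the postnatal mouse ovary, CNP from granulosa cells acts on Npr2 in cumulus cells, and the cyclic GMP they pass to the oocyte blocks the phosphodiesterase Pde3a and holds meiosis in arrest.

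The promoters of Nppc and Gucy1b1 are shown because these 2 genes ran in opposite directions with age in testis. Each run is the 250 bases before the RefSeq gene start in build GRCr8, read 5′ to 3′ along the gene's own strand, which is the minus strand for both. The Nppc window is chr9:94772187-94772436 and the Gucy1b1 window is chr2:169696988-169697237. Capitals mark matches, on either strand, to 3 common core promoter motifs. They are TATAAA, which is bound by the general initiation machinery, the sequence CCAAT, which is bound by the factor NF-Y and whose matches here all lie on the opposite strand, and the letters of the Sp1 site, GGGCGG.
Nppc: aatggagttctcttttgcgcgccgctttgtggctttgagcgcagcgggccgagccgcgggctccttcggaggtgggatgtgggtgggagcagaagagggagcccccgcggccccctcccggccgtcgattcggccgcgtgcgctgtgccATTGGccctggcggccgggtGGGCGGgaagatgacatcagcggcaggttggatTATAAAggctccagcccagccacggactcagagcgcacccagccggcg
Gucy1b1: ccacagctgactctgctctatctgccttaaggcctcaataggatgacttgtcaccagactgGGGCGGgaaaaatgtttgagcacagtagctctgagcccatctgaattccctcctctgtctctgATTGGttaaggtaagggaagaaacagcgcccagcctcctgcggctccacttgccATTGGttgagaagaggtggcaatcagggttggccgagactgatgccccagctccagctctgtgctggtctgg

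The Nppc window held 1 match to the initiation motif, which begins 48 bases before the start, 1 Sp1 match and 1 NF-Y match. The Gucy1b1 window held no match to the initiation motif, but 1 Sp1 match and 2 NF-Y matches, which begin 126 and 72 bases before the start. None of these matches overlapped another. Of 33469 RefSeq promoter windows of the same length, 12.9% held the initiation motif, 34% the NF-Y motif and 30.5% the Sp1 motif on either strand. The cyclic AMP response element, TGACGTCA, was in neither window and in 1.59% of all windows. The site of the steroidogenic regulators of the NR5A family, spelled TCAAGGTCA, was also in neither window and in 0.388% of all. G and C made up 68.8% of the Nppc window and 54.8% of the Gucy1b1 window, beside a median of 51.2% over all windows. The Npr3 window held none of the 5 motifs, and these matches are descriptions of letters, not of bound factors.

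The values are deposited intensities on a linear scale, which had been brought to the same trimmed mean of 125 on each array. Log2 differences are on the scale log2(value + 16), which understates the change of low readings, while folds are ratios of mean intensities. The Y-linked testis-determining gene Sry read 162.8 and 184.9 in E13 testis, against 13.1 to 28.7 on the 6 ovary arrays. Amh, which encodes the Sertoli cell hormone behind regression of the female ducts, read 476.7 to 1092.8 in E14, E16 and cultured testis and at most 38.5 in ovary. The readings of Xist, the transcript that silences 1 X chromosome in females, were apart from the other arrays of their sex on 4 arrays, called discordant here. They were 36.2, 269.2 and 151.1 on replicate 1 of E13 testis, E14 testis and cultured testis, and 12.8 on replicate 2 of E16 ovary. The other testis arrays read 1.5 to 4.8 and the other ovary arrays 151.7 to 672.3. Only 269.2 was thus within the range of the other sex, and 151.1 was just below it. Values without these 4 arrays are given beside the results. The ratio of 3′ to 5′ signal of actin, a sign of RNA quality, was raised on replicate 1 of E16 ovary (3.345) and on replicate 2 of cultured testis (2.973), against 1.475 to 2.131 on the others. A gonad is a mixture, and in these bulk RNA samples fewer cells of a type and less RNA per cell cannot be told apart.

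Nppc, the ligand gene (probe set 1387744_at), stood out in E16 testis. It read 180.6 and 187.8 in E16 testis, against 15.0 and 15.2 in E16 ovary. The 4 readings did not overlap, and both testis arrays were far above both ovary arrays. Mean intensities were 184.2 ± 5.09 in testis and 15.1 ± 0.141 in ovary (SD, n = 2 each), a 12.2-fold ratio and a log2 difference of 2.69. Detection above background was not analysed here, so the ratio depends on what the low ovary readings hold, and the log2 difference was 1.65 with an offset of 64 and 3.52 with an offset of 1. Without the 4 arrays of discordant Xist the log2 difference was again 2.69, and between the arrays of the 2 sexes with the same chip label it was 2.71. Each of these values rests on 1 E16 ovary array. For the former it was replicate 1, with the actin ratio of 3.345, and for the latter replicate 2, with the discordant Xist.

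At the earlier ages the Nppc readings of the sexes lay close together. In E13 the arrays read 55.1 and 35.4 in testis, against 29.8 and 24.4 in ovary. The groups did not overlap, but the gap of 0.17 on the log2 scale was smaller than the 0.47 between the 2 testis arrays. In E14 the readings were 36.2 and 31.9 in testis, against 23.9 and 27.6 in ovary. The log2 difference between the sexes was thus 0.49 at E13, 0.26 at E14 and 2.69 at E16. Without the discordant arrays the E13 value was 0.26.

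The courses of Nppc with age ran in opposite directions. In testis, the mean was 45.2 ± 13.9 at E13, 34.0 ± 3.04 at E14 and 184.2 ± 5.09 at E16 (SD, n = 2 each), so the high reading appeared between E14 and E16. E16 testis was 5.41-fold above E14 testis and 4.07-fold above E13 testis, with log2 differences of 2.0 and 1.73. Without the discordant arrays the difference to E13 testis was 1.96. In ovary, the mean was 27.1 ± 3.82 at E13, 25.8 ± 2.62 at E14 and 15.1 ± 0.141 at E16 (SD, n = 2 each). E16 ovary was 0.47 lower than E13 ovary on the log2 scale. The E16 sex difference exceeded the one at E13 by 2.20 on the log2 scale, or 2.43 without the discordant arrays.

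Cultured testis did not have the Nppc reading of E16 testis, although 3 days in culture brought E13 testis to a comparable time. Cultured testis read 33.8 and 21.6, against 180.6 and 187.8 in fresh E16 testis. The mean of 27.7 ± 8.63 in culture (SD, n = 2) was 0.150 times that of E16 testis, a log2 difference of -2.21. Both chip labels that held an array of each group gave a difference in this direction, -2.44 and -1.98, and without the discordant arrays it was -2.41. Set against fresh E13 testis, the cultured arrays were 0.48 lower on the log2 scale, with a gap of 0.05 between the nearest arrays of the groups.

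Ordered by mean, Nppc was highest in E16 testis, followed by E13 testis, E14 testis, cultured testis, E13 ovary, E14 ovary and E16 ovary. E16 testis and E16 ovary were separated from their neighbours in this order. The ranges of each other pair of neighbours overlapped.

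**Figure D1:**
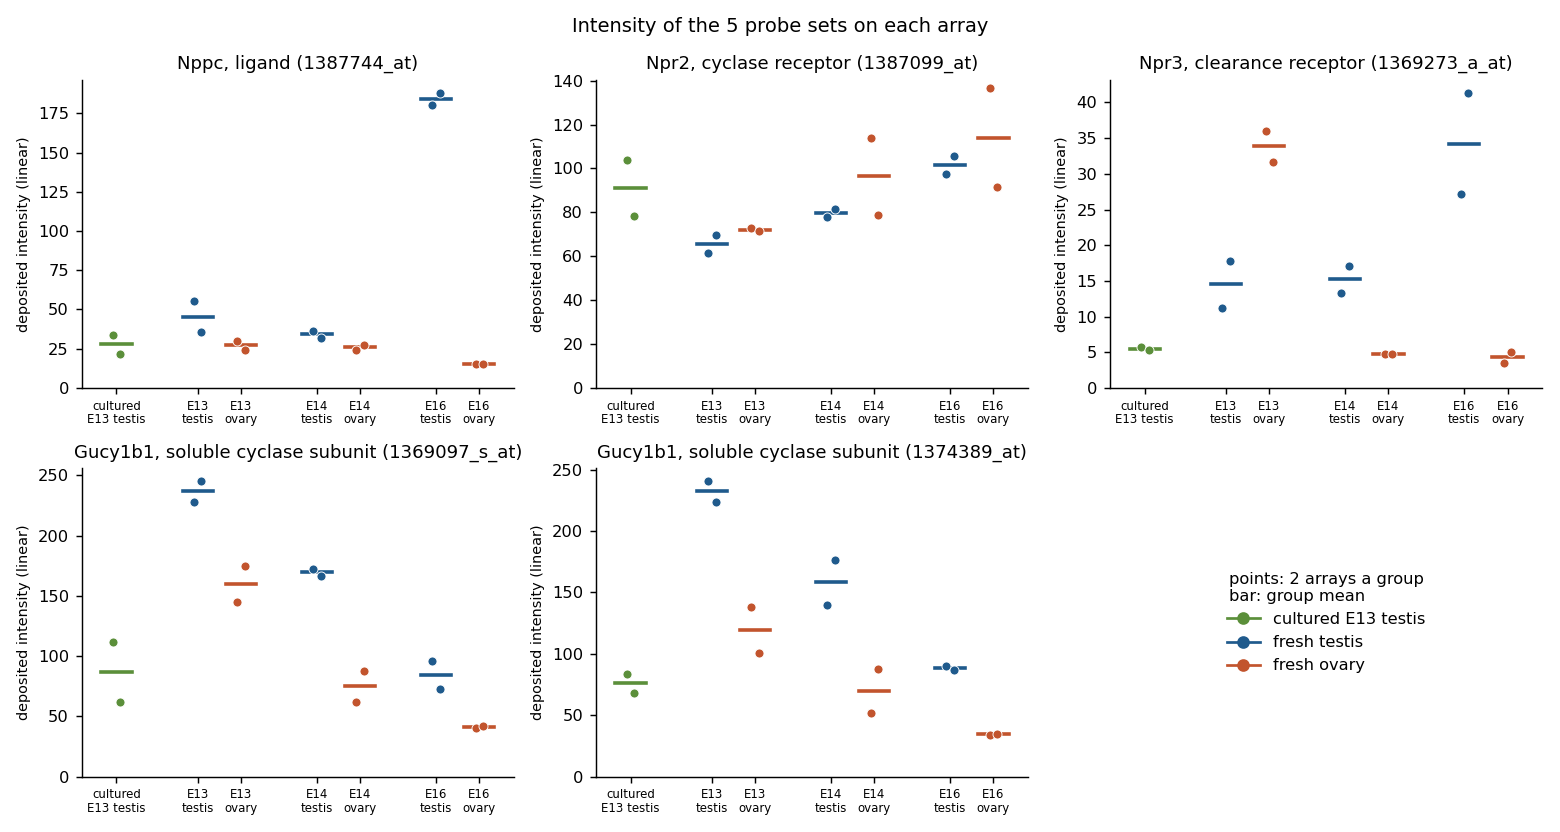
Deposited intensity (vertical axis, linear, from 0) of the 5 probe sets on each array, for cultured E13 testis and for testis and ovary at E13, E14 and E16. Points are the 2 arrays of a group and bars their mean. Nppc is high in E16 testis alone among the groups, with 180.6 and 187.8, Npr3 is high in E16 testis and E13 ovary, and both Gucy1b1 probe sets have a lower mean at each later age in each sex.

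Markers of the cell types that form in the testis over these days moved with Nppc in part. The summed intensity of 5 fetal Leydig cell markers (Cyp11a1, Cyp17a1, Hsd3b1, Star, Insl3), all measured, was 4002 to 7844 in E16 testis, against 74.7 to 154.3 in E16 ovary. It was 124.8 to 173.9 in E13 testis and 136.3 to 172 in E14 testis. In cultured testis, where Nppc was low, the Leydig sum was 3324 to 4380. Of 5 Sertoli markers, 3 were measured (Amh, Inha, Aard). They summed to 2503 to 3200 in cultured testis and 2791 to 2843 in E16 testis. The Sertoli sum was 577.7 to 638.2 in E16 ovary and 404.8 to 518 in E13 testis. Unlike the Leydig sum, it was already raised in E14 testis, with 1642 to 1655, where Nppc read 36.2 and 31.9. Of the Leydig markers, Hsd3b1 was the largest part of the cultured sum, with a mean of 2287, against 1817 in E16 testis. The others had lower means in culture than in E16 testis. Insl3 had 255.4, against 1099, and Cyp17a1 605.3, against 1899. Cyp11a1 had 447.8, against 833.2, and Star 256.1, against 274.3. The 5 smooth muscle markers (Acta2, Tagln, Myh11, Cnn1, Des) summed to 637.2 to 670.8 in cultured testis and 781.3 to 1047 in E16 testis, against 307.9 to 418.1 in E16 ovary. No marker of these lists was at 0 on any array, and the part of each cell type in the Nppc reading was not tested.

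**Figure D2:**
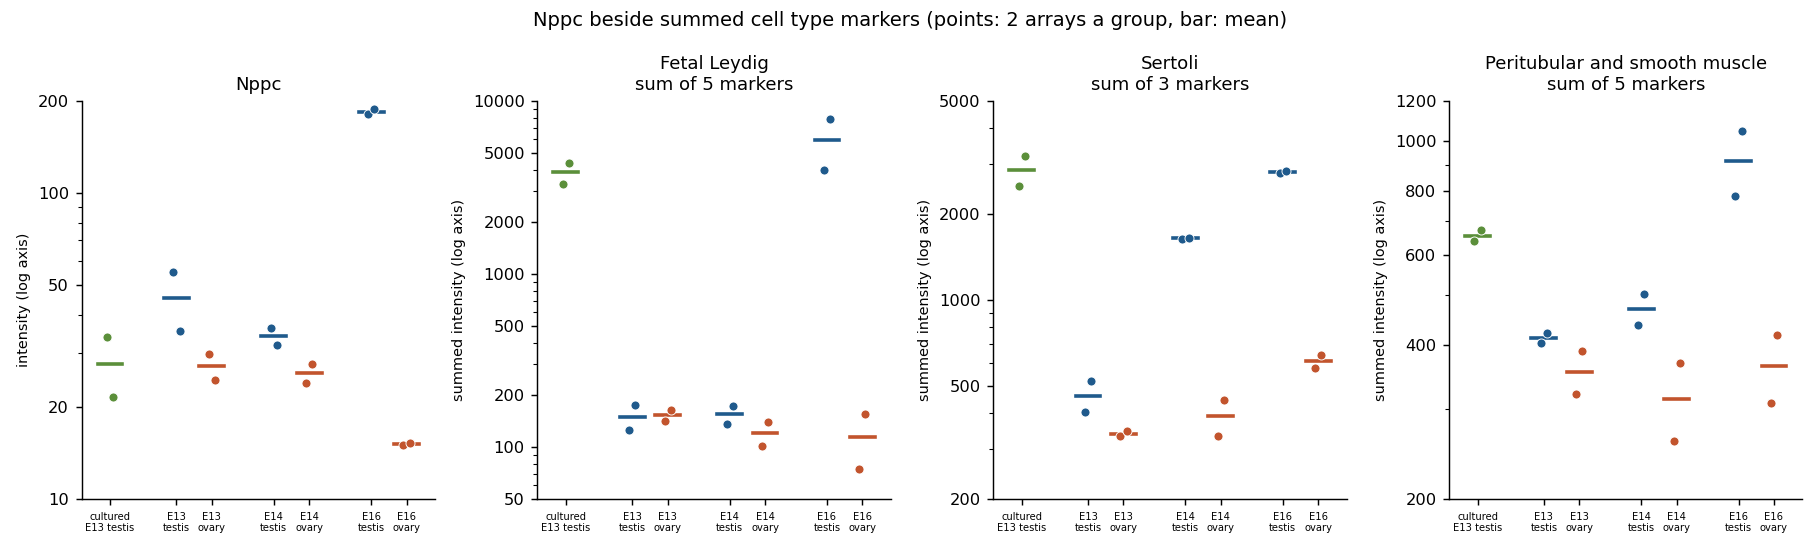
Nppc intensity and the summed intensity of fetal Leydig, Sertoli and smooth muscle markers (vertical axes, logarithmic) in the 7 groups. Points are the lower and the higher of the 2 arrays of a group and bars their mean. Cultured testis has a Leydig sum of 3324 to 4380 and Nppc readings of 33.8 and 21.6, whereas E16 testis is high in both.

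Npr2, the signalling receptor for CNP (1387099_at), differed little between the sexes. It read 61.7 and 69.6 in E13 testis, against 73.0 and 71.3 in E13 ovary. At E14 it read 77.9 and 81.5 in testis, against 114.1 and 78.8 in ovary. At E16 it read 97.7 and 105.7 in testis, against 136.7 and 91.4 in ovary. The testis arrays were both lower at E13 by a gap of 0.03 on the log2 scale, and the sexes overlapped at E14 and E16. The log2 differences between testis and ovary were -0.11, -0.21 and -0.12 at the 3 ages. At E16 the value was 0.18 within 1 chip label and -0.38 without the discordant arrays, so its direction was not settled.

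The readings of Npr2 were higher at E16 than at E13 in both sexes. The mean was 101.7 ± 5.66 in E16 testis, against 65.7 ± 5.59 in E13 testis, and 114 ± 32.0 in E16 ovary, against 72.2 ± 1.20 in E13 ovary (SD, n = 2 each). The log2 differences were 0.53 in testis and 0.54 in ovary, or 0.46 and 0.79 without the discordant arrays. In testis the gap between the ages exceeded the spread between arrays, and in ovary it did not. Cultured testis read 103.9 and 78.3, which was 0.38 above fresh E13 testis and 0.15 below fresh E16 testis on the log2 scale, and it overlapped E16 testis. Without the discordant arrays these differences were 0.14 and -0.32, and the 2 chip labels shared with E16 testis gave -0.37 and 0.08, so that the direction against E16 testis was not settled. In the order of means, E13 testis was lowest and E13 ovary next, and the 5 groups above them overlapped from neighbour to neighbour.

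Of the red blood cell markers, Alas2 and Hbb moved with Npr2 and Slc4a1 did not. The 3 measured of 5 (Alas2, Hbb, Slc4a1) summed to 4787 to 7524 in E16 testis, against 256.1 to 317 in E13 testis. The sum was 4126 to 5914 in E16 ovary, against 270.4 to 279.3 in E13 ovary, and 201.9 to 2662 in cultured testis. Most of it was Hbb, with means of 5725 in E16 testis, against 83.3 in E13 testis, and 4734 in E16 ovary, against 105.8 in E13 ovary. Slc4a1, the red cell anion exchanger, had means of 94.9 in E16 testis, against 115.5 in E13 testis, and 62.6 in E16 ovary, against 61.5 in E13 ovary. The highest Npr2 reading, 136.7, was on the E16 ovary array with the actin ratio of 3.345. The part of blood cells and of RNA quality in the Npr2 readings was not tested.

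Npr3, the clearance receptor (1369273_a_at), read low throughout and changed sides between the sexes. It read 11.2 and 17.8 in E13 testis, against 36.0 and 31.7 in E13 ovary. At E14 it read 13.3 and 17.1 in testis, against 4.8 and 4.7 in ovary. At E16 it read 27.2 and 41.3 in testis, against 3.5 and 5.1 in ovary. Both testis arrays were thus below both ovary arrays at E13 and above them at E14 and E16. The log2 differences were -0.72, 0.59 and 1.29 at the 3 ages, and -0.56, 0.67 and 1.35 without the discordant arrays.

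In ovary the low reading of Npr3 was reached by E14. The mean was 4.75 ± 0.0707 in E14 ovary, against 33.9 ± 3.04 in E13 ovary (SD, n = 2 each), a log2 difference of -1.26. E14 and E16 ovary overlapped. In testis E13 and E14 overlapped, and E16 testis was 0.71 above E13 testis on the log2 scale, with a gap of 0.35 that was smaller than the spread of 0.41 between the E16 arrays. The E16 sex difference exceeded the one at E13 by 2.01. The ratio of mean intensities in ovary, 0.127 for E16 over E13, rests on readings near the lower end of the scale, where a small shift in background changes a ratio much.

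Cultured testis resembled neither fresh testis in Npr3. It read 5.7 and 5.3, against 11.2 and 17.8 in fresh E13 testis and 27.2 and 41.3 in fresh E16 testis. All cultured readings lay below all fresh testis readings, with log2 differences of -0.50 to E13 and -1.21 to E16. The 2 chip labels shared by cultured and E16 testis gave -1.43 and -0.99. In the order of means, E16 testis and E13 ovary came first and overlapped, E14 and E13 testis followed and overlapped, and cultured testis stood above E14 and E16 ovary, which overlapped.

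Endothelial cells are a known site of Npr3. Of 8 endothelial markers, the 6 measured (Pecam1, Kdr, Flt1, Tie1, Vwf, Eng) summed to 472.6 to 486.1 in E16 testis, against 490.5 to 556.9 in E16 ovary. Kdr set the direction of the sum, with a mean of 186.9 in E16 testis, against 333.6 in E16 ovary. The other 5 had a higher mean in E16 testis, as Npr3 did, among them Eng with 103.3 in testis, against 52.6 in ovary. In E13 all 6 summed to 401.1 to 433.4 in testis, against 399.5 to 559.8 in ovary, and the ranges overlapped. At E14, where Npr3 was higher in testis, they summed to 383.2 to 392.7 in testis, against 297.6 to 707.8 in ovary. These ranges overlapped as well. In cultured testis the sum was 370.3 to 372.1. The part of endothelial cells in the Npr3 readings was not tested.

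Gucy1b1, the beta subunit of the soluble cyclase, was higher in testis than in ovary at each age and lower at each later age. The probe set 1369097_s_at, whose suffix marks probes shared with other transcripts, read 227.8 and 245.5 in E13 testis, against 144.5 and 174.8 in E13 ovary. At E14 it read 172.4 and 166.5 in testis, against 62.2 and 88.0 in ovary. At E16 it read 96.1 and 73.1 in testis, against 40.3 and 41.8 in ovary. The sexes did not overlap at any age, and the log2 differences were 0.53, 1.04 and 0.81, or 0.58, 1.02 and 0.83 without the discordant arrays.

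The second probe set of Gucy1b1, 1374389_at, gave the same directions from other probes. It read 240.7 and 223.9 in E13 testis, against 138.3 and 100.4 in E13 ovary. At E14 it read 139.9 and 176.4 in testis, against 51.7 and 87.4 in ovary. At E16 it read 89.9 and 86.9 in testis, against 34.1 and 35.0 in ovary. Testis was higher by 0.89, 1.05 and 1.05 on the log2 scale. The sexes did not overlap, but the E14 gap of 0.59 was smaller than the 0.61 between the E14 ovary arrays. Over the 14 arrays the log2 values of the 2 probe sets correlated at r = 0.95, and 12 arrays differed by at most 1.3-fold between them. Both probe sets read the same RNA samples, and the largest ratio was 1.74, on E13 ovary replicate 2.

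With age, Gucy1b1 was lower in both sexes. E16 testis had a mean of 84.6 ± 16.3, against 236.6 ± 12.5 in E13 testis, and E16 ovary had 41.0 ± 1.06, against 159.6 ± 21.4 in E13 ovary (1369097_s_at, SD, n = 2 each). The log2 differences were -1.34 in testis and -1.62 in ovary, and -1.25 and -1.41 for the second probe set. None of the E16 arrays overlapped the E13 arrays of their sex. E14 lay between E13 and E16 in each sex and with both probe sets. In ovary with 1374389_at, E14 was apart from E13 by 0.17 and from E16 by 0.41 on the log2 scale. Both gaps were smaller than the 0.61 between the E14 ovary arrays. The E16 sex difference exceeded the one at E13 by 0.28 and 0.16, less than these changes. Ordered by mean, E13 testis was highest and E16 ovary lowest with both probe sets, each apart from its neighbour. Between them, 1369097_s_at put E14 testis and E13 ovary, which overlapped, above cultured testis, E16 testis and E14 ovary, which overlapped from neighbour to neighbour. The order with 1374389_at was E14 testis, E13 ovary, E16 testis, cultured testis and E14 ovary, and only the last pair overlapped.

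Cultured testis had Gucy1b1 readings like those of E16 testis. It read 111.8 and 62.0 with 1369097_s_at, against 227.8 and 245.5 in fresh E13 testis and 96.1 and 73.1 in fresh E16 testis. The second probe set read 83.6 and 68.1, against 240.7 and 223.9 in E13 testis and 89.9 and 86.9 in E16 testis. The cultured arrays were below E13 testis by log2 differences of -1.34 and -1.44, and their differences to E16 testis were 0.00 and -0.19. The lower cultured reading of each probe set came from replicate 2, the array with an actin ratio of 2.973. Without the discordant arrays, which leaves that replicate alone, the difference of 1369097_s_at to E13 testis was -1.75 and that to E16 testis was -0.36.

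Mesonephric markers, which were dim, were also lower at E16 than at E13. The 3 measured of 4 (Pax8, Lhx1, Cdh16) summed to 33.9 to 54.7 in E16 testis, against 95.6 to 132.3 in E13 testis, and to 17.3 to 35.9 in E16 ovary, against 64.1 to 73 in E13 ovary. At E14 they summed to 52.5 to 67.4 in testis and to 74 to 75 in ovary, which was above E13 ovary, unlike Gucy1b1. None had a mean of 100 or more in any group. In cultured testis, where Gucy1b1 was low, they summed to 75.4 to 98. The part of mesonephric tissue in the Gucy1b1 readings was not tested.

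Counted over the 5 probe sets, testis and ovary arrays did not overlap for 5 at E13, 4 at E14 and 4 at E16. Among all 15866 non-control probe sets the shares without overlap were 46.2% at E13, 34.6% at E14 and 41.8% at E16. E16 and E13 did not overlap for 5 of the 5 in testis (41.3% of all probe sets) and for 5 in ovary (41.4%). Cultured and fresh E13 testis did not overlap for 5 (39.5% of all), and cultured and E16 testis for 3 (35.3% of all). Since the genes were selected from these arrays, nothing is read from these counts. The 40 differences of the 5 probe sets come from comparisons that share arrays, and they are recomputed in other settings below.

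**Figure D3:**
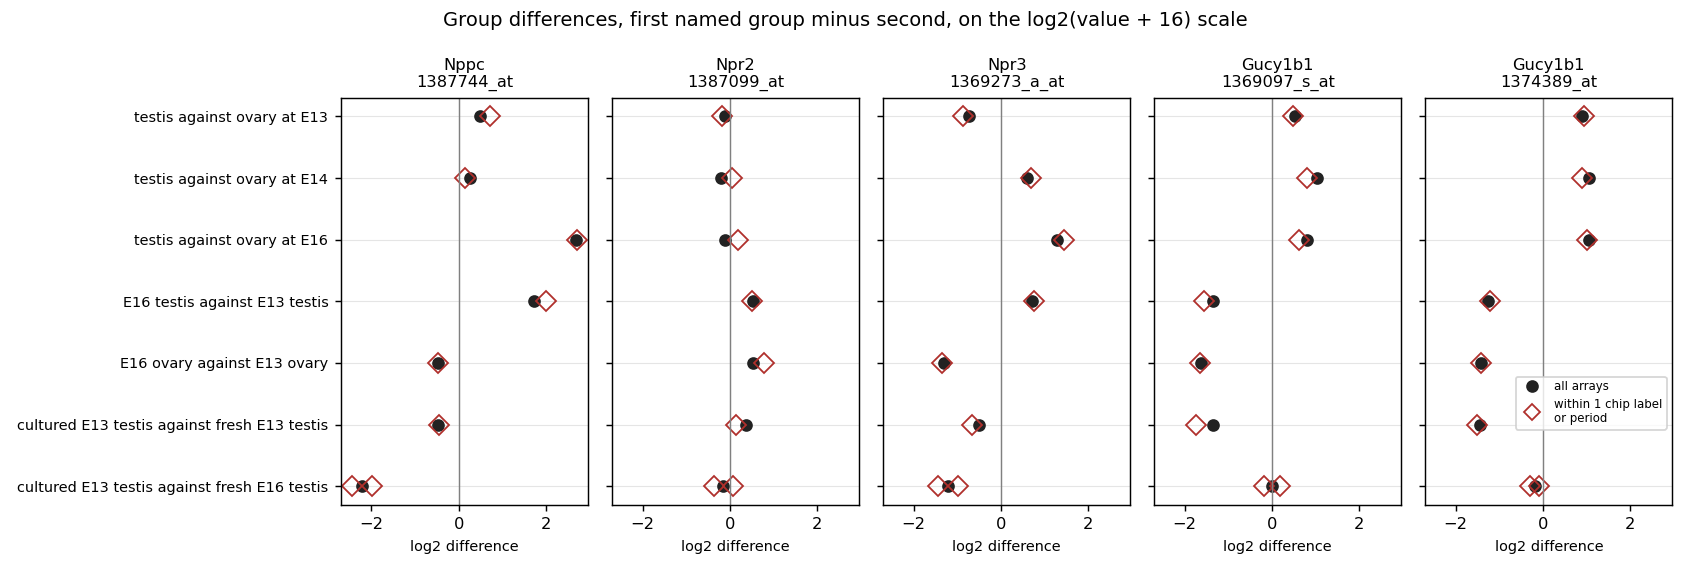
Log2 differences (horizontal axis, log2(value + 16) scale, group named first minus group named second) of the 5 probe sets in 7 comparisons. Filled points use all arrays, and open diamonds use the arrays that share a chip label or, where no label holds both groups, a chip period. The largest difference is that of Nppc at E16, 2.69 with all arrays and 2.71 within 1 chip label, and only Npr2 differences near 0 and that of Gucy1b1 between cultured and E16 testis lie on both sides of 0.

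Among themselves the members followed separate courses. Over the 14 arrays the log2 values of Nppc and Npr3 correlated at r = 0.63, and both had their highest mean in E16 testis. Npr2 ran against Gucy1b1, with r = -0.76 and -0.77 for the 2 probe sets. Nppc and Npr2 had r = 0.06. All points share the arrays, groups and scaling, so these values describe the courses and no more.

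The genes with courses most like each member were searched among 841 probe sets with a group mean of at least 100 and a range of at least 1 between group means on the log2 scale. Closest to Nppc were Svs5 (r = 0.896 over 14 arrays), a seminal vesicle secretory protein, Cpa1 (0.89), a digestive carboxypeptidase, Oaf (0.825), Ada (0.804), the adenosine deaminase, and Wnt5a (0.793), a secreted Wnt ligand. Cpa1 had a mean of 2357 in E16 testis, against 204.4 in cultured testis and 21.9 in E16 ovary. These 3 groups had the same order for Nppc, but Cpa1 was picked for this likeness. Fresh E13 testis differed, since its Cpa1 mean of 73.45 lay below that of cultured testis. For Nppc it lay above, with 45.2 in fresh E13 testis, against 27.7 in culture. Closest to Gucy1b1 were Hapln1 (0.923), a link protein of the extracellular matrix, Mtus1 (0.914), Robo1 (0.9), a Slit receptor, Fxyd6 (0.894), a regulator of the sodium pump, and Tpm1 (0.892), a tropomyosin. Hapln1 had a mean of 53 in E16 testis, against 125.4 in E13 testis.

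For Npr2 the most similar courses were those of Alas2 (r = 0.849), the haem synthesis enzyme of red cells, Ifi35 (0.845), Pias2 (0.824), Hbb (0.821), a beta globin, and Exoc3l2 (0.818). For Npr3 no course was as close. Its list held Mest (0.729), an imprinted gene, Tpm1 with 2 probe sets (0.714 and 0.689), Gpc3 (0.667), a glypican of the cell surface, and Kif18b (0.665), a mitotic kinesin.

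The rest of the cyclic GMP pathway was tested with limma, adjusting over all 15866 probe sets. The list held 49 genes of 6 roles besides the 4 members, and 39 were measured. The other 10 are not analysed here. The p-values set each difference against a spread between the 2 pools of a group. That spread was shared over all 7 groups and drawn toward a common value over all probe sets. In 6 of the groups the 2 pools also differed in chip period, so the spread is not that of pools alone. At E16, 1 of the 39 genes was higher in testis at an adjusted p under 0.05 and 0 were lower, beside 1.74% of all probe sets in either direction and 1.01% higher in testis. In the other comparisons 0 of 39 passed. The shares of all probe sets that passed by limma were 0.0126% between the sexes at E13, 0.139% at E14, 0.945% for E16 against E13 testis, 0.889% for E16 against E13 ovary, 1.39% for cultured against fresh E13 testis, 0.0945% for cultured against E16 testis and 0.145% for the change of the sex difference.

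At an unadjusted p under 0.05 by limma, 2, 5 and 6 of the 39 genes differed between the sexes at E13, E14 and E16. The same threshold was met by 7.79%, 8% and 13% of all probe sets. With age it was met by 4 genes in testis and 4 in ovary (10.7% of all probe sets in each). It was met by 6 genes between cultured and E13 testis (12.3% of all), 5 between cultured and E16 testis (6.67%) and 5 for the change of the sex difference (6.49%). The median log2 difference of the 39 genes between the sexes was 0.02, 0.05 and 0.15 at E13, E14 and E16, beside 0.04, 0.02 and 0.05 over all probe sets. With age it was -0.02 in testis and -0.11 in ovary (-0.02 in each over all probe sets). Cultured testis had a median of 0.01 against E13 testis and 0.06 against E16 testis (-0.01 and 0.02 over all probe sets).

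The gene that passed was Gucy1a1, the alpha subunit that pairs with Gucy1b1 in the soluble cyclase. Its brighter probe set 1368154_at read 538.3 and 670.7 in E16 testis, against 352.7 and 309.0 in E16 ovary. The log2 difference was 0.83 (SE 0.18, limma adjusted p = 0.0484), and both testis arrays were above both ovary arrays. At E13 it read 430.1 and 447.3 in testis, against 422.7 and 440.6 in ovary, and at E14 515.9 and 594.7 in testis, against 441.5 and 345.9 in ovary. Cultured testis read 459.0 and 409.4. Unlike Gucy1b1, Gucy1a1 thus had no lower mean in E16 than in E13 testis. Its dimmer probe set 1387079_at read 115.7 and 104.3 in E16 testis, against 41.8 and 78.1 in E16 ovary, a log2 difference of 0.77 that did not pass (limma adjusted p = 0.323).

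The call on Gucy1a1 lay at the threshold. It passed in 10 of 24 alternative settings, with adjusted p-values between 0.0111 and 0.323, and it was lost with an offset of 1 (adjusted p = 0.106 by limma) and without the discordant arrays (0.262). Leaving out E16 testis replicate 2 gave 0.323. Within 1 chip label the log2 difference was 1.08.

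**Figure D4:**
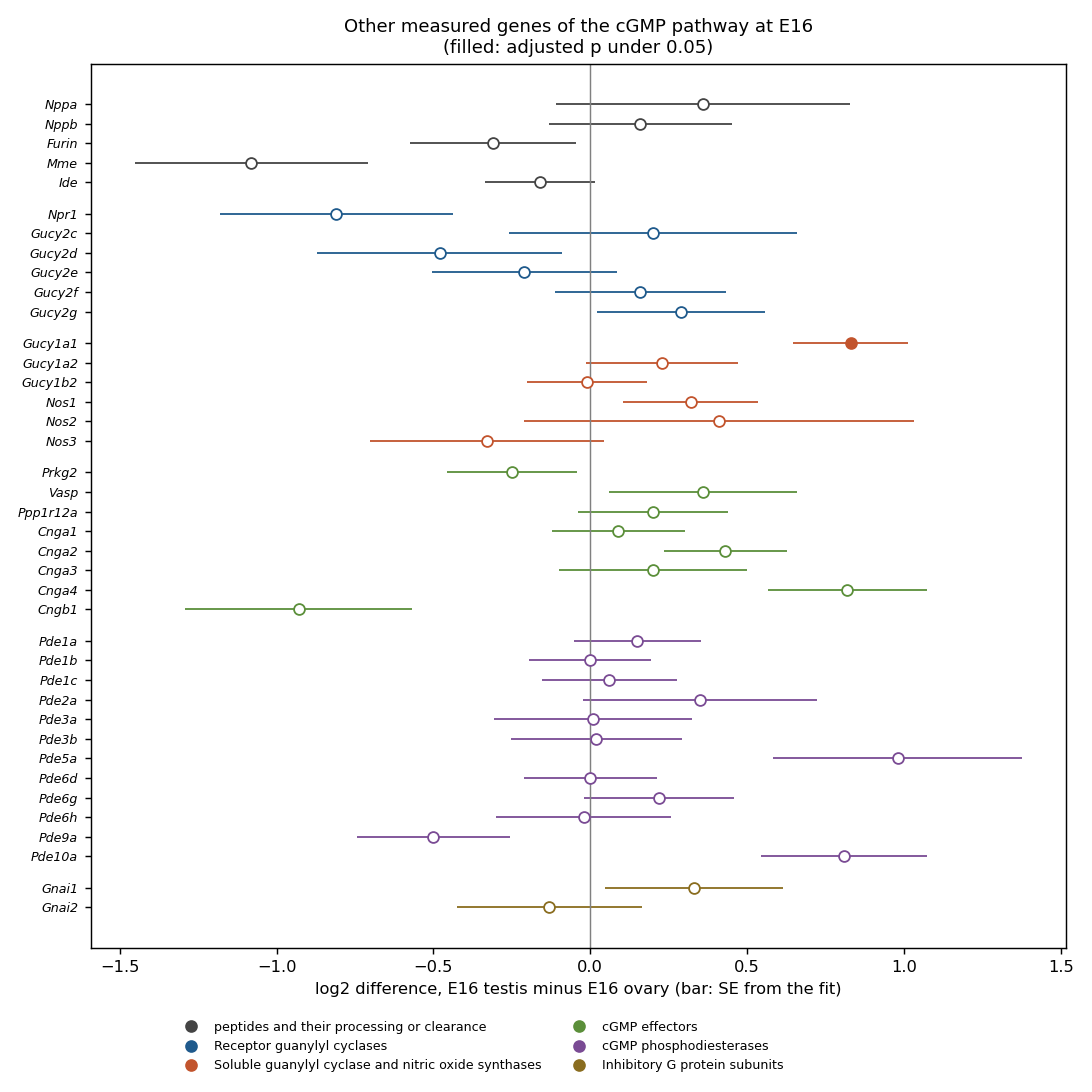
Log2 difference between E16 testis and E16 ovary (horizontal axis, testis minus ovary, log2(value + 16) scale) of the 39 other measured genes of the pathway, grouped by role. Bars are standard errors from the limma fit. Gucy1a1, at 0.83, is the filled point, and the 38 open points did not pass.

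In each role the brightest gene was also followed. Among the receptor cyclases this was Npr1, the receptor for the atrial and brain natriuretic peptides, which read 75.7 and 70.2 in E16 testis, against 143.9 and 134.9 in E16 ovary. The groups did not overlap, but the log2 difference of -0.81 did not pass (limma adjusted p = 0.391). In cultured testis Npr1 read 62.1 and 10.2, against 114.1 and 116.3 in fresh E13 testis, a log2 difference of -1.54 that did not pass (adjusted p = 0.0847 by limma). The reading of 10.2 was on replicate 2, the array with the raised actin ratio, and the difference passed where that array alone stood for culture (limma adjusted p = 0.002).

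The other 4 differed less between the sexes at E16. Ide, insulin-degrading enzyme, which also breaks down natriuretic peptides, read 222.9 and 283.2 in E16 testis, against 286.3 and 280.5 in E16 ovary. Vasp, an actin regulator and substrate of the cyclic GMP kinase, read 249.8 and 202.9 in E16 testis, against 225.9 and 130.7 in E16 ovary. Pde2a, a phosphodiesterase that cyclic GMP stimulates, read 138.6 and 116.8 in E16 testis, against 155.3 and 57.6 in E16 ovary. Gnai2, an inhibitory G protein subunit of the kind that Npr3 couples to, read 205.4 and 252.5 in E16 testis, against 344.4 and 180.8 in E16 ovary. For each of these 4 the sexes overlapped, and the log2 differences lay between -0.16 and 0.36. By role, 5 of 7 listed genes of peptides and their processing were measured, 6 of 6 receptor cyclases, 6 of 6 soluble cyclase subunits and nitric oxide synthases, 8 of 11 effectors, 12 of 16 phosphodiesterases and 2 of 3 inhibitory G protein subunits.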

How the data were processed

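The values are intensities on a linear scale, 1 per probe set and array, as deposited. How the probes were summarised is not given in the sources used here. Deposited intensities of each array had a mean of 125 after trimming 2% at each end, and array medians lay between 59.5 and 69.1. Replicate arrays correlated at r = 0.949 to 0.982. Of 15923 probe sets, 57 controls were left out. Names came from the platform annotation, and probe sets with several symbols (312) or none (2771) were not named.

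A model of 7 groups was fitted with limma 3.58.1 in R 4.3.3 to log2(value + 16) of all 14 arrays (lmFit, eBayes, 7 residual degrees of freedom), with Benjamini-Hochberg adjustment over 15866 probe sets and a threshold of 0.05. The procedure was run on simulated arrays with known changes and independent noise. The simulation held no effect shared between arrays, such as one of chip period, so it does not cover such effects. The members, lists and tests were chosen with earlier results of these data known. Named besides the members were pathway genes that passed, the brightest gene of each role and the 5 probe sets most like each member. Of several probe sets for a gene, the brightest was taken. Promoters came from a RefSeq table (GRCr8), which matched 3 of the 4 members and was used for no other purpose. Alternatives were the offset, quantile normalization, a filter on dim probe sets, replicate and chip blocks, the variance model, probe set choice, and leaving arrays out. Chip labels and periods are codes within the chip names.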

Additional observations from a re-analysis of the deposited data

Results flagged for a closer look

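For 2 members the arrays of the sexes moved in opposite directions between E13 and E16, and neither difference was tested. Among all probe sets, E16 and E13 arrays did not overlap for 41.3% in testis and 41.4% in ovary. The share of all probe sets with opposite changes was not counted, and the members were selected from these arrays. Nppc was higher at E16 than at E13 on every testis array and lower on every ovary array, a difference between the 2 changes of 2.20 on the log2 scale. Npr3 did the same, with a difference of 2.01. The sex difference of Npr3 also changed sides, with every testis array below every ovary array at E13 and above at E16, which is the same contrast of 2.01. The brighter probe set of Gucy1a1, 1368154_at, likewise had every E16 array above E13 in testis and below in ovary. The difference between its changes, 0.81, was tested by limma and did not pass (adjusted p = 0.477). The dimmer probe set 1387079_at did not share this pattern. It read 41.8 and 78.1 in E16 ovary, against 53.1 and 57.2 in E13 ovary, and its difference was 0.44 (limma adjusted p = 0.948).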

How the results depend on the processing

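The 40 member differences were recomputed in 24 settings, giving 952 values. Npr3 has none with the filter on dim probe sets, which removed its probe set. Many of the values could not move. The filter, the replicate block, the variance model and the probe set choice leave a log2 difference as it was. So does leaving out an array of a group outside the comparison. The counts that follow are therefore no measure of stability. Of the 952 values, 99 moved by more than the spread between replicates, 26 of them with an offset of 64 and 18 with an offset of 1, and 11 changed sign. No difference of at least 1 on the log2 scale did, and the sign changes were in Npr2 and in the change of the sex difference of Gucy1b1 1374389_at. The Nppc difference at E16 ranged from 1.65 (offset of 64) to 3.52 (offset of 1), and that of Npr3 from 0.52 to 2.72 with the same offsets. The pathway count at E16 was 1 as reported, 0 with an offset of 1, 0 without the 4 arrays of discordant Xist, and 0 to 1 leaving out 1 array. Gucy1a1 passed with either E14 ovary array left out, and without either cultured array the 1 gene was Npr1 (log2 difference of -0.81, limma adjusted p = 0.0462) instead. Between cultured and fresh E13 testis the count was 1 with the filter on dim probe sets (Npr1, -1.54, adjusted p = 0.0471 by limma) and 0 to 1 leaving out 1 array, against 0 as reported. Between cultured and E16 testis it was 0 to 1, and the 1 was Npr1 without cultured replicate 1 (limma adjusted p = 0.00666). Where a group keeps 1 array, it is assumed to vary like the others. The number of all probe sets passing at E16 was 276, against 167 with an offset of 1, 594 with the chip label as a random block (correlation 0.38), 62 without E16 testis replicate 2 and 14 without the 4 arrays. With the replicate block Gucy1a1 had a log2 difference of 0.83 and a limma adjusted p of 0.0445, and the blocked fit changed no pathway call. The number of all probe sets passing moved by over 1.5 times with this block for E14 testis against ovary (36, against 22 without it) and E16 against E13 ovary (276, against 141). Same-numbered arrays deviated together in all 15 pairs among the 6 groups other than E13 ovary (r = 0.11 to 0.53) and in none of the 6 pairs with E13 ovary at over 0.1 (-0.05 to 0.07). In those 6 groups every replicate 2 and no replicate 1 was of chip period 1, and both E13 ovary arrays were of period 3, so replicate number and chip period cannot be told apart there. Over the settings, the number of all probe sets passing ran from 0 to 2 at E13 (2 as reported) and from 0 to 93 at E14 (22) between the sexes, from 6 to 252 for E16 against E13 testis (150), from 0 to 276 for E16 against E13 ovary (141), from 5 to 378 for cultured against E13 testis (221), from 3 to 72 for cultured against E16 testis (15) and from 0 to 46 for the change of the sex difference (23). Detection above background was not analysed here, so low readings of Npr3 and Nppc carry no statement on presence.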
